A study of Zea mays with 303 samples.

Results

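The plastid genes psbA, psbB, psbC, psbH, psaC, atpI and cemA of maize were followed across single anther cells. They were chosen by name as the photosystem and ATP synthase genes of the table together with cemA, and they are 7 of its 17140 features and 7 of its 25 features with plastid gene symbols. All 7 matched a plastid gene of the RefSeq annotation of Zm-B73-REFERENCE-NAM-5.0. Each sample was 1 cell from dissected anthers at early meiosis of greenhouse-grown inbred W23, a line that also carried bz2, an allele of an anthocyanin pathway gene, in every plant. The anthers were placed in Farmer's Solution (ethanol with acetic acid), protoplasting enzymes then released the fixed cells, and single cells were sorted with a BioSorter or a Hana. All cells formed 1 group, with no treatment, no named plant and no labelled cell type. The titles placed them in 4 library pools of 55, 78, 79 and 91 cells, with index numbers 6, 11, 28 and 29, and the labels gave nothing else that differed between the pools.

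Chloroplasts keep a small genome that encodes core subunits of the photosynthetic complexes, while most of their proteins, including the light-harvesting antennae, are encoded in the nucleus. In photosystem II, psbA encodes the D1 reaction centre protein, psbB and psbC the core antenna proteins CP47 and CP43, and psbH a small phosphorylated subunit. The psaC product carries the terminal iron-sulfur clusters of photosystem I. The atpI product is a membrane subunit of the chloroplast ATP synthase, next to the path of the protons. cemA encodes a protein of the inner chloroplast envelope, which in the green alga Chlamydomonas bears on inorganic carbon uptake, and so belongs to neither a photosystem nor the synthase. Every living plant cell type contains plastids of some kind, so no anther cell could serve as a blank for these transcripts. In the anther wall, the endothecium is a layer known for its chloroplasts. Plastid mRNAs lack the stable poly(A) tails of nuclear mRNAs, and the libraries were made from poly(A) RNA by a variant of CEL-Seq2, whose oligo(dT) primers bring in a barcode for the cell and a unique molecular identifier (UMI). How completely plastid mRNAs were captured was not tested, so their UMI counts are read here between cells and not as amounts beside nuclear mRNAs.

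The table held 800166 UMIs, with a median of 1780 and at most 9934 per cell. Median depth was 2942, 2803, 1162 and 1746 UMIs in pools 6, 11, 28 and 29, and 2759 and 1260 UMIs for barcodes 1 to 48 and 49 to 96. The pools reused the same barcode set: 44 barcode numbers occurred in all 4 pools and 91 of 96 in at least 2. No pair of cells had identical counts, and across barcodes shared by a pair of pools the Spearman correlation of the summed level of the 7 genes was between -0.29 and 0.15, over 46 to 74 barcodes. Of the marker symbols listed for the tissue, 1 of 12 meiocyte symbols (RAD51B, 6 UMIs), none of 9 tapetum symbols and 1 of 3 epidermis symbols (CR4, 12 UMIs) matched a feature. Most features carried only an identifier, so these lists could not check the tissue label.

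Together the 7 genes held 9244 UMIs, 1.16% of all UMIs, or 11553 CPM (UMIs scaled to a total of 1000000). Poisson 95% intervals below are exact and cover counting error only, and with 1 group of cells there are no replicates and no test. A pair of genes carried most of this signal. psbC gave 3226 UMIs and cemA 3123, which were 34.9% (exact binomial 95% interval 33.9% to 35.9%) and 33.8% (32.8% to 34.8%) of the UMIs of the 7 genes. atpI followed with 1255 UMIs (13.6%), then psbH with 633, psbB with 519, psbA with 328 and psaC with 160 UMIs (1.73%). These shares describe the libraries and are not per transcript length. psbA, in leaves one of the most abundant plastid mRNAs, was thus among the least counted here.

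Single cells spanned a wide range. The summed level of the 7 genes was 0 in the lowest cells, 4154 CPM in the median cell and 54670 CPM in the highest. A UMI of at least 1 of the genes was found in 94.7% of cells, and of all 7 in 38 cells, which had a median depth of 5065 UMIs. The 16 cells with none had a median of 511.5 UMIs. cemA and psbC had a UMI in 80.9% and 78.2% of cells, atpI in 64.4%, psbH in 42.6%, psbB in 38.3%, psbA in 31.4% and psaC in 23.4%. Thinning each cell to 1000 UMIs left out 87 cells, namely 13, 13, 36 and 25 cells of pools 6, 11, 28 and 29. The share of cells with a UMI was then 74.1% for cemA, 71.3% for psbC, 52.8% for atpI, 33.8% for psbH, 29.6% for psbB, 25.9% for psbA and 14.8% for psaC. The order of the genes was the same in both.

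The counts of psbB were nearly duplicated elsewhere in the table. Feature Zm00001d000282 had exactly the same count as psbB in 90 cells, 77.6% of those in which either had a UMI, and Zm00001d018163 in 80 cells (67.8%). Over all cells the totals were 519 UMIs for psbB, 495 for Zm00001d000282 and 488 for Zm00001d018163. All 3 features were equal in 76 cells (64.4% of those with a UMI of any) and never differed by more than 5 UMIs. The Spearman correlations of CPM with psbB were 0.96 for both. No such feature was found for the other members. Their most similar feature by this measure had equal counts in 15.3% to 16.8% of the cells in which either had a UMI. The measure counts exact equality only, so features that share part of their counts with a member would be missed. What these 2 identifiers stand for is not given in the gene table used here, and whether 1 molecule was counted under several features was not tested. The psbB level is therefore uncertain, as counting that splits or repeats reads among near-identical features would change it.

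**Figure D1:**
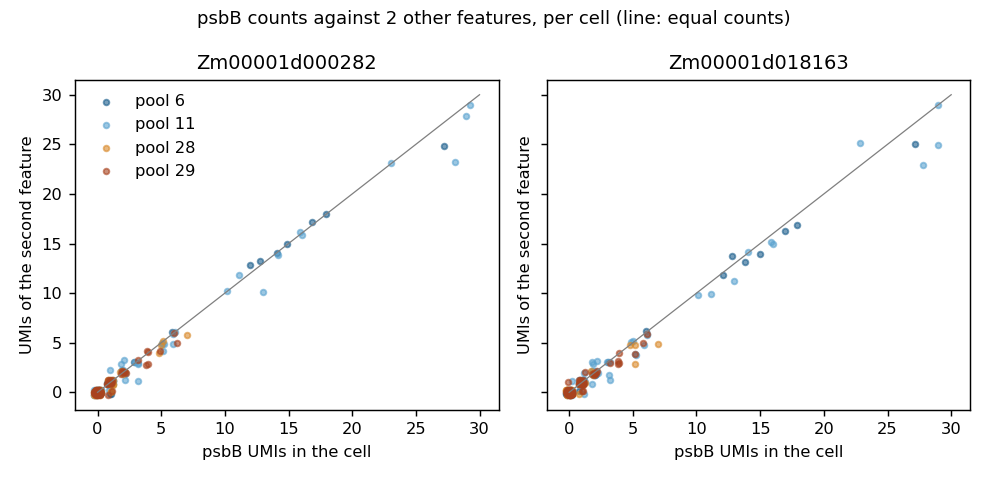
UMIs of psbB in each cell (x axis) against UMIs of Zm00001d000282 (left) and Zm00001d018163 (right), for all cells, coloured by pool; points are shifted at random by less than 1 UMI so that they do not hide each other, and the line marks equal counts. The points follow the line up to 29 psbB UMIs, with equal counts in 77.6% and 67.8% of the cells that had a UMI of either feature.

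Library pools differed in the level of these genes. The summed level was 14403 CPM (13873 to 14947) in pool 6 and 15227 CPM (14760 to 15704) in pool 11, against 6208 CPM (5770 to 6671) in pool 28 and 7562 CPM (7204 to 7933) in pool 29. Pools 11 and 28 differed 2.45-fold (2.27 to 2.66). The counting intervals of pools 6 and 11 overlapped, while the sum of pool 29 lay above that of pool 28. Cells overlapped widely all the same: the lowest cell was at 0 in each pool, the medians were 4587, 4970, 4013 and 3467 CPM in pools 6, 11, 28 and 29, and the highest cells reached 47740, 54670, 33378 and 33932 CPM. Cell medians thus lay closer together than the sums did, and by median pool 29 lay below pool 28, the reverse of their sums. The highest cells of pools 6 and 11 lay above those of pools 28 and 29.

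All 4 photosystem II genes lay higher in pools 6 and 11 than in pools 28 and 29. psbA stood at 536.9 CPM (438.7 to 650.5) in pool 6 and 607.9 CPM (517.6 to 709.3) in pool 11, against 183.8 CPM (115.2 to 278.3) in pool 28 and 184.8 CPM (132.6 to 250.7) in pool 29. Within each of these pairs the psbA intervals overlapped, and between the pairs they did not. psbH was alike, at 1136 and 1072 CPM in pools 6 and 11 and at 359.3 and 387.6 CPM in pools 28 and 29. The antenna gene psbC was at 5245 and 5089 CPM in pools 6 and 11, at 2817 CPM (2600 to 3046) in pool 29 and lowest at 1980 CPM (1736 to 2249) in pool 28. For psbB pool 11 was highest, at 1038 CPM (919.2 to 1169), above pool 6 at 717.5 CPM (603.2 to 847.2), with 350.9 and 283.9 CPM in pools 28 and 29.

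The other members varied in how far the pools parted. atpI was at 1993 and 1910 CPM in pools 6 and 11, at 1226 CPM (1084 to 1380) in pool 29 and at 760.3 CPM (612.2 to 933.5) in pool 28. cemA was at 5286 CPM (5012 to 5570) in pool 11, at 4579 CPM (4282 to 4890) in pool 6 and at 2465 and 2438 CPM in pools 28 and 29. The photosystem I gene psaC did not keep the order in its point values. It stood at 225.3 CPM (167.2 to 297.1) in pool 29, beside 222.8 CPM (169.6 to 287.3) in pool 11, 196.2 CPM (138.8 to 269.2) in pool 6 and 108.6 CPM (57.8 to 185.7) in pool 28. With 13 to 59 psaC UMIs per pool, its intervals overlapped between all pools. The pool 29 value includes 1 cell at 4418 CPM of psaC in 4074 UMIs, the highest psaC level of any cell. The place of pool 29 in the order leans on that cell, and the level without it was not computed.

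Against the background of all features with at least 50 UMIs, 3171 in number, the pool differences were uneven. Folds are log2 ratios of summed CPM with 10 CPM added to both sides, and a feature was counted as different at a fold of 2. In pool 28 against the other pools 4 of the 7 genes (psbA, psbH, atpI and psbC) were lower by at least that much, where 5.87% of all features were. In pool 29 3 of the 7 (psbB, psbA and psbH) were lower, against 6.21% of features. In pool 11 psbB alone was higher by that much, with a log2 fold of 1.17, against 1.99% of features, and in pool 6 none was, against 1.58%. The 18 other features with plastid gene symbols differed between pools in the same way. By that fold 9 of the 18 were lower in pool 28 and 7 in pool 29, while 5 were higher in pool 11 and 0 in pool 6. Their median log2 folds were -1.06 in pool 28 and -0.86 in pool 29, beside -1.15 and -0.87 for the 7 genes. CAB1, the nuclear gene of a chlorophyll a/b-binding antenna protein, ran the other way, at 480.1, 868.4, 1445 and 1821 CPM in pools 6, 11, 28 and 29. The labels give only the index of a pool, so pool, depth and any difference in anthers cannot be told apart.

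**Figure D2:**
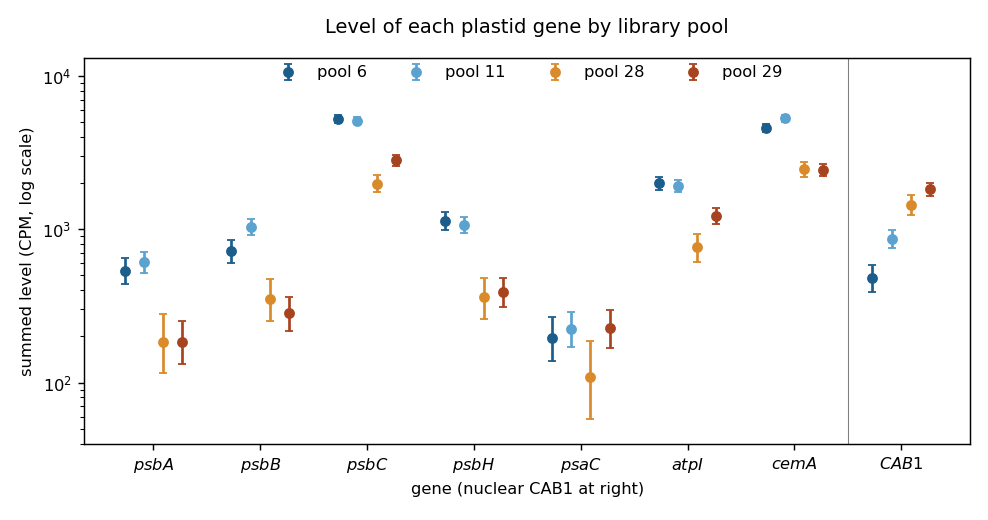
Summed level in CPM (log scale) of each plastid gene and of nuclear CAB1 (right of the line) in pools 6, 11, 28 and 29; points are UMIs summed over the 55, 78, 79 and 91 cells of a pool, and bars are exact Poisson 95% intervals. Of the plastid genes, all but psaC lie higher in pools 6 and 11 than in pools 28 and 29, while CAB1 lies lowest in pool 6 (480.1 CPM) and highest in pool 29 (1821 CPM). The psaC point of pool 29 includes 1 cell at 4418 CPM of psaC, and the level without it was not computed.

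The next comparison asked how the plastid genes lay in cells that also held transcripts of CAB1. A CAB1 UMI was found in 40.3% of cells, which were 15, 37, 30 and 40 cells of pools 6, 11, 28 and 29, and was missing in 40, 41, 49 and 51 cells of those pools. The split is by a measured gene, and cells with CAB1 were deeper, with a median of 3121 against 1305 UMIs, so cells without a CAB1 UMI include shallow cells in which CAB1 may have been missed. All 7 plastid genes were higher in cells with CAB1. Their summed level was 17439 CPM (17053 to 17830) with and 4131 CPM (3922 to 4348) without, and the median log2 fold of the 7 genes was 2.15. All 7 passed a fold of 2, where 7.1% of all features did and 4.07% were lower by as much, and the median log2 fold of all 3171 features was -0.29.

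Among the photosystem II genes, psbC reached 6167 CPM (5939 to 6402) with CAB1 and 1339 CPM (1221 to 1465) without, a ratio of 4.60 (4.18 to 5.09). Its cells ran from 0 to 18223 CPM with a median of 3446 CPM where CAB1 was present, and from 0 to 19574 CPM with a median of 675.2 CPM where it was not. The groups overlapped over nearly their whole range and differed in their medians. The highest cell without CAB1 had only 1175 UMIs, so CAB1 may have been missed in it. A deeper cell without CAB1, of 7782 UMIs, stood at 12208 CPM of psbC. psbB stood at 999.4 against 206.3 CPM, a ratio of 4.85 (3.78 to 6.29), and psbH at 1215 against 257.1 CPM, a ratio of 4.72 (3.78 to 5.97). Over all cells psbA differed least, at 569.2 CPM (501.3 to 643.7) against 209.1 CPM (164.2 to 262.5), a ratio of 2.72 (2.09 to 3.58) whose counting interval lay below those of psbB, psbC and psbH. By pool it had the lowest ratio in pools 6, 11 and 29. In pool 28 psbA was at 4.38 (1.44 to 17.8), above psbB (2.75) and psbH (3.68). The psbA share of the UMIs of the 7 genes was 3.26% (2.88% to 3.68%) with CAB1 and 5.06% (4.00% to 6.31%) without. Shares of the other 6 genes had overlapping intervals in the 2 groups of cells.

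Outside photosystem II, psaC had the largest ratio of the 7, at 309.2 against 62.2 CPM, though its 22 UMIs in cells without CAB1 gave a wide interval (4.97, 3.16 to 8.20) that overlapped those of the other 6. The 309.2 CPM includes the pool 29 cell at 4418 CPM of psaC, which had 24 CAB1 UMIs. The ratio without that cell was not computed, so the first rank of psaC may rest on it. atpI stood at 2331 against 607.5 CPM, a ratio of 3.84 (3.31 to 4.46). cemA stood at 5849 CPM (5626 to 6078) against 1450 CPM (1327 to 1581), a ratio of 4.03 (3.67 to 4.44), and its cells had medians of 3765 and 1019 CPM. A cemA UMI was found in 98.4% of cells with CAB1 and 69.1% without, and a psaC UMI in 45.1% and 8.84%. After thinning to 1000 UMIs, with CAB1 read from the thinned counts, these shares were 92.1% and 64.3% for cemA and 27.6% and 7.86% for psaC, in 76 and 140 cells.

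These differences were present inside the pools. Within pool 6 the log2 folds of the 7 genes ran from 2.09 (psbA) to 3.15 (psbH), within pool 11 from 1.34 (psbA) to 2.28 (psbC), and within pool 28 from 1.41 (psbB) to 2.62 (psbC). In those pools all 7 passed a fold of 2, where 9.05%, 9.11% and 12.7% of features did. In pool 29 6 of 7 did, against 8.33% of features, with log2 folds from 1.77 (cemA) to 2.38 (psbH). The exception was psbA, at 202.9 against 148.5 CPM in pool 29, a ratio of 1.37 (0.666 to 3.02) that included no difference. Thinned to 1000 UMIs, psbA over all pools also fell short of that fold, with a log2 fold of 0.73 in place of 1.40. CAB1 was again read from the thinned counts, so the groups of cells changed along with depth, and what each contributed was not tested. Thinned psbB had a log2 fold of 1.43 in place of 2.22, and the other 5 genes had 1.46 (atpI) to 2.08 (psbH). The pool 29 value rests on 30 and 11 UMIs, and its interval overlapped those of psbA in pools 11 and 28 but only narrowly that in pool 6 (2.82 to 7.05). The levels without CAB1 kept the order of the pools, with summed levels of 5167 and 5189 CPM in pools 6 and 11 and 2133 and 2606 CPM in pools 28 and 29.

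**Figure D3:**
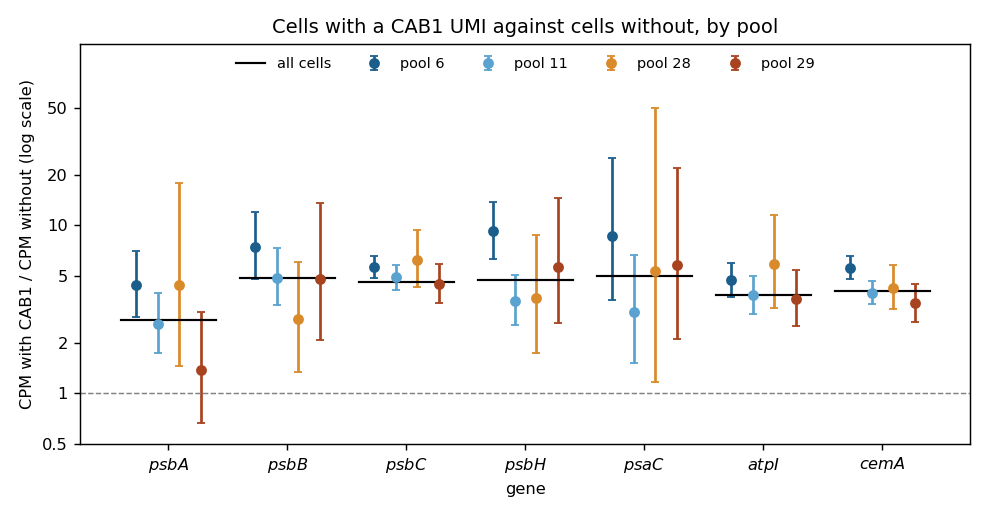
Ratio of the summed CPM of each plastid gene in cells with a CAB1 UMI to that in cells without (log scale), in each of the 4 pools (points, with exact 95% intervals conditional on the total count) and over all cells (black lines). The ratios over all cells lie between 2.72 (psbA) and 4.97 (psaC), and the interval of psbA in pool 29 alone crosses 1. The psaC ratio includes the pool 29 cell with the highest psaC level of any cell.

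The difference lay mainly in cells with many CAB1 UMIs. Cells with 0, 1 and 2 to 4 CAB1 UMIs had summed levels of the 7 genes of 4131, 4874 and 6440 CPM, the latter groups being of 33 and 32 cells. The 57 cells with 5 or more had 28088 CPM (27414 to 28775). Cell medians were 2701, 3122, 5092 and 24766 CPM in that order, and median depths 1305, 2794, 2759 and 3752 UMIs, so cells with 1 and with 2 to 4 CAB1 UMIs were of similar depth and both lay far below those with 5 or more. Among cells with 5 or more, pool 6 stood at 39766 CPM and pool 11 at 34166 CPM, against 18837 CPM in pool 28 and 15974 CPM in pool 29. The 8 cells of pool 6 ran from 11432 to 47740 CPM and the 19 cells of pool 29 from 4154 to 33932 CPM, so these pools overlapped. High levels also occurred in cells without a CAB1 UMI. Of the 30 cells with the highest summed level, 26 had a CAB1 UMI. The 4 without had only 379 to 1175 UMIs in all, so CAB1 may have been missed in them. Below those 30, a deeper cell of pool 6, with 7782 UMIs and none of CAB1, stood at 27756 CPM. Those 30 cells held 57.1% of the UMIs of the 7 genes and 17.1% of all UMIs, and 17 of them were from pool 11, 8 from pool 6, 2 from pool 28 and 3 from pool 29.

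**Figure D4:**
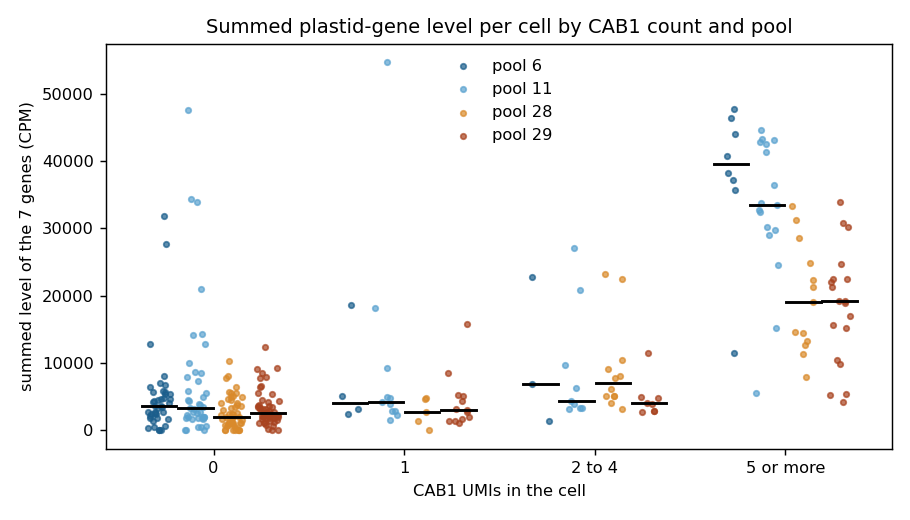
Summed level of the 7 plastid genes in each cell (CPM) by the number of CAB1 UMIs in that cell and by pool; points are cells, spread sideways at random, and black bars are medians. Cells with 5 or more CAB1 UMIs have a median of 24766 CPM against 2701 CPM in cells with none, and among them pools 6 and 11 lie above pools 28 and 29 with overlap.

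The 7 genes varied together from cell to cell. Over all cells each of the 21 pairs had a positive Spearman correlation of CPM, from 0.37 (psbA and atpI) to 0.66 (psbC and cemA), with a median of 0.47. The cells share pools, depth and scaling to a common total, so these values are descriptions and carry no p. Counts this sparse weaken a correlation. With the counting variance subtracted in the cells of at least 1000 UMIs, the median Pearson correlation of the pairs was 0.84. Its measure and cells also differ from those of the 0.47, and what each contributed was not tested. psbC then correlated at 0.98 with atpI, 0.95 with cemA and 0.93 with psbH, and cemA at 0.96 with psbH. psaC had the 5 lowest values, 0.44 to 0.58, and none above 0.72, with a mean of 0.57 over its 6 partners against 0.73 to 0.88 for the other genes. It also varied most, with a coefficient of variation beyond counting error of 1.94, against 1.13 for cemA and 1.14 for atpI, the least variable members. psaC had 160 UMIs, the fewest of the 7, and these values have no interval. They include the 1 cell of pool 29 at 4418 CPM of psaC, the highest of any cell, and were not computed without it.

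Co-variation differed between cells with and without CAB1. The median Spearman correlation of the 21 pairs was 0.60 in cells with a CAB1 UMI, from 0.45 (psbB and psaC) to 0.87 (psbC and cemA). In cells without it was 0.19, from 0.08 (psaC and cemA) to 0.31 (psbC and cemA). The latter cells are shallower and their correlations are too weak to read singly. A comparison thinned to 1000 UMIs was added after these values had been seen. It left out shallower cells and read CAB1 from the thinned counts, in 76 cells with and 140 without. The groups were thus not the same cells, and some cells without CAB1 there may have held it before thinning. The medians were 0.48 with CAB1 and 0.28 without. Within pools the median was 0.52, 0.59, 0.34 and 0.41 in pools 6, 11, 28 and 29, and all 21 pairs were positive in each. The pair of psbC and cemA was the strongest in pools 11, 28 and 29, at 0.83, 0.56 and 0.55, and in pool 6 atpI and cemA were, at 0.75. Each gene also concentrated in cells picked by the others: the 30 cells highest in the other 6 genes held 63.2% of psbB UMIs, 60.2% of psbH, 58.8% of psbA, 55.5% of psbC, 52.7% of atpI, 51.7% of cemA and 50.0% of psaC UMIs, and 16.3% to 17.7% of all UMIs.

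**Figure D5:**
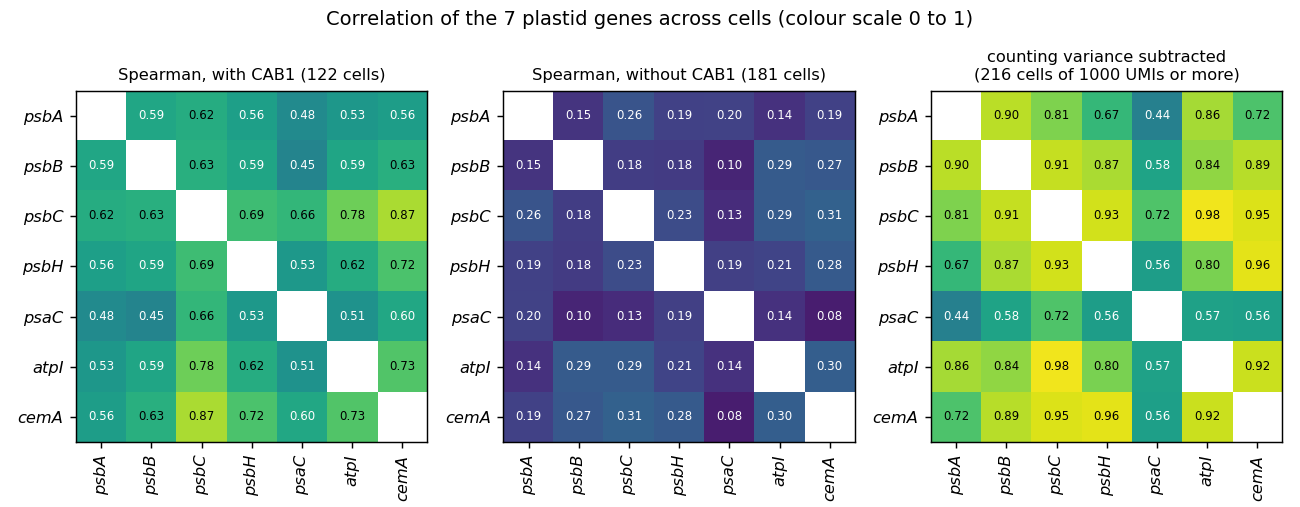
Correlation across cells for each pair of the 7 plastid genes, as Spearman correlation of CPM in cells with a CAB1 UMI (left) and cells without (middle), and as Pearson correlation with counting variance subtracted in cells of at least 1000 UMIs (right); the number in each square is the correlation and the colour scale runs from 0 to 1. Values centre on 0.60 at left, 0.19 in the middle and 0.84 at right, where the row of psaC is the darkest, with a mean of 0.57.

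Neighbours on the plastid genome were compared in the same way. psbB and psbH lie in 1 gene cluster with only psbT and psbN between them, and psbC overlaps psbD, in the RefSeq gene order. The Spearman correlation of psbB and psbH was 0.45, below that of psbB with cemA (0.53), which lies elsewhere. psbH had fewer UMIs than cemA (633 against 3123), and sparse counts weaken a correlation. As Pearson correlations with counting variance subtracted, in cells of at least 1000 UMIs, the pairs were close, at 0.87 and 0.89. A direct neighbour was measured for 3 members. psaC and ndhE, a subunit gene of the plastid NADH dehydrogenase-like complex, correlated at 0.47, which ranked 5 among the 24 plastid features compared with psaC. atpI and rps2, a ribosomal protein gene, correlated at 0.43 and ranked 17, and psbB and clpP, a protease subunit gene, at 0.38 and ranked 20. These ranks were not adjusted for the counts of the features, and no order of strength by neighbourhood can be read from 3 such pairs.

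The 18 other features with plastid gene symbols, which encode subunits of the NADH dehydrogenase-like complex, the plastid RNA polymerase, ribosomal proteins, clpP, infA and ycf70, give the wider setting. Together with the 7 they took 3.29% of all UMIs. 17 of the 18 were higher by at least a fold of 2 in cells with CAB1, where 7.1% of all features were, and the last, clpP, had a log2 fold of 0.90. Their median log2 fold was 1.49 with a range of 0.90 to 2.08, against 1.40 to 2.22 for the 7 genes. In pools 6, 11 and 28 their medians were 1.92, 1.52 and 1.37, beside 2.48, 1.93 and 2.08 for the 7 genes. There 18, 17 and 13 of the 18 passed a fold of 2, against 9.05%, 9.11% and 12.7% of all features. The gap was widest in pool 29. In that pool the 18 had a median of 0.87 and 8 passed a fold of 2, beside a median of 2.12 and 6 of 7 for the 7 genes and 8.33% of all features. rps3 shares its symbol with a mitochondrial gene and cannot be placed with certainty. Of the 4 nuclear photosynthesis genes measured besides CAB1, all were higher in cells with CAB1, among them RBCS, the small subunit of Rubisco, at 638.7 against 17.0 CPM, and PSBQ1, of the oxygen-evolving complex of photosystem II, at 437.0 against 42.4 CPM. RCA1, the gene of Rubisco activase, had only 11 UMIs, all in cells with CAB1.

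Features most like the 7 genes were sought among the 3164 other features with at least 50 UMIs, by Spearman correlation of CPM with the summed level over all cells. The median over those features was -0.03 and 58 of them reached 0.5. The 5 highest carried identifiers only: Zm00001d000270 (0.77), Zm00001d019605 (0.74), Zm00001d006402 (0.70), Zm00001d006401 (0.70) and Zm00001d000277 (0.70). Outside the plastid symbols the highest named genes were CAB1 (0.59), RBCS (0.56) and PSBQ1 (0.52). Taken gene by gene, the nearest feature was Zm00001d000270 for atpI (0.72) and psbH (0.59), Zm00001d000277 for psbC (0.68), Zm00001d006401 for cemA (0.78), ycf70 for psaC (0.56) and GRMZM5G876106 for psbA (0.53). Zm00001d006401 had 1580 UMIs and was at or below cemA in 92.6% of the cells in which either had a UMI, with equal counts in 28.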

How the data were processed

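The deposited values are raw UMI counts by feature and cell. The submitters' processing notes name HISAT2 and B73 RefGen_v4. The UMI counter, its strand setting, its handling of reads with several matches and any filter on cells are not given in the sources used here. No feature had UMIs in fewer than 3 cells. All cells were used, with no doublet caller, so a well that held several cells would remain. UMIs were summed and scaled to CPM; folds added 10 CPM to both sides. Intervals (95%) are exact Poisson, Clopper-Pearson or conditional binomial, from scipy 1.17.1 with Python 3.11.15. The counting-variance correction subtracted the Poisson variance of each rate. Fold and correlation code was tested on simulated data. With 1 group and no replicates no test was made; edgeR 4.0.16 supplied TMM scaling as an alternative. Named genes were the 7 members, CAB1, neighbouring plastid genes, the features most like the members by a fixed rank rule, and the named nuclear photosynthesis genes. The members, lists and rules were chosen with earlier results of these data known. No protein or promoter sequences were used here.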

Additional observations from a re-analysis of the deposited data

How the results depend on the processing

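No paired analysis was possible because replicate numbers only name the cells of 1 group; cells with and without CAB1 were compared within each pool instead. No alternative changed the direction of a member's log2 fold or of the 7-gene results, and of the 140 member log2 folds between cells with and without CAB1 all were at 1 or above but those of psbA within pool 29 (0.43) and in thinned cells (0.73). The summed level of 11553 CPM became 13903 CPM without the 20 most abundant features in the total, 11946 CPM without plastid-encoded features, 12316 and 10304 CPM in barcodes 1 to 48 and 49 to 96, and 9019 CPM as a mean of single cells. Leaving out each pool or gene in turn gave 7521 CPM (without psbC) to 13084 CPM, and 7650 CPM without cemA. The ratio of pools 11 and 28 (2.45) became a highest-to-lowest ratio of 2.84 without the 20 features, 3.24 in barcodes 1 to 48 and 2.07 as a mean of single cells, and 2.40 to 2.66 leaving out each gene. The median log2 fold of 2.15 between cells with and without CAB1 was 2.24 in cells with at least 500 genes, 2.28 without the 20 features, 1.88 and 2.59 in the lower and higher barcodes, 1.98 with 50 CPM added, 2.45 with median-ratio scaling, 2.41 with TMM, 2.45 from 2 CAB1 UMIs up, 1.62 in thinned cells, 2.30 with RBCS in place of CAB1, 2.48 in pool 6 and 1.93 in pool 11, and 1.94 to 2.17 leaving out each pool or gene. The median Spearman correlation of 0.47 was 0.59 in pool 11, 0.34 in pool 28, 0.19 without CAB1 (0.28 thinned), 0.60 with CAB1, and 0.41 to 0.53 leaving out each pool or gene. With counting variance subtracted the value was 0.84, but as a Pearson correlation in cells of at least 1000 UMIs only. Measure and cells changed along with the subtraction. Thinned comparisons by CAB1 read it from the thinned counts, so the groups of cells changed along with depth. The balance of all features past a fold of 2 with CAB1 turned with the UMI minimum: 7.1% were higher and 4.07% lower from 50 UMIs up, 5.50% (432) and 5.95% (467) from 20 UMIs up, and 5.11% (876) and 5.86% (1005) with none. The causes were not tested. psaC, with 160 UMIs in all, had the fewest counts.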

Other observations

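A feature named ATPA, whose symbol does not tell whether the ATP synthase subunit is of the plastid or the mitochondrion, did not follow the 7 plastid genes. It had 2296 UMIs in 91.1% of cells, and stood at 2317 CPM in cells with a CAB1 UMI and at 3566 CPM in cells without, a ratio of 0.650 (0.598 to 0.706). In pool 28 it was level, at 2804 and 2845 CPM, and in pools 6, 11 and 29 it was lower with CAB1, with ratios of 0.514, 0.585 and 0.639. Its Spearman correlation with the summed level of the 7 genes was -0.21 over all cells. C2, a chalcone synthase gene, and GAPC3, a cytosolic glycolytic gene, correlated with that sum at 0.05 and -0.16.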
